A study of Mus musculus with 5 samples.

Results

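The ADAMTS proteases measured here are 10 genes, *Adamts1*, *Adamts2*, *Adamts4*, *Adamts5*, *Adamts6*, *Adamts7*, *Adamts9*, *Adamts10*, *Adamts12* and *Adamts14*, listed by symbol and found by their Ensembl identifiers among the 21835 genes of the expression table. All 10 passed the filter on low values. RNA sequencing compared murine lung cancer-associated fibroblasts (CAFs, the fibroblasts of a tumor's stroma) that overexpressed miR-200 with control CAFs. CAF-200 (3 samples) carried a lentiviral neomycin-resistance vector, miR-200b/a/429_pLVX-Neo, which expresses miR-200b, miR-200a and miR-429 from their cluster, and CAF-vec (2 samples) carried the empty vector. The labels name 1 cell line, CAF, from lung, with G418 selection of the infected cells for over 2 weeks, so both groups are cultured cells of that line. The study's methods instead name a hygromycin-resistance vector, introduced into lung fibroblasts, and the labels were followed here. Nothing in the labels says that the samples came from separate cultures, so *p* values measure only the spread between these samples, which may be technical. In bulk RNA, fewer cells that express a gene and less RNA per cell cannot be told apart.

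ADAMTS proteases are secreted zinc metalloproteinases whose catalytic domain is followed by thrombospondin type I repeats, which help to place them in the extracellular matrix. Some cleave the large hyaluronan-binding proteoglycans versican and aggrecan (the hyalectans), some remove the amino-terminal propeptide of fibrillar procollagens, and others act on cartilage oligomeric matrix protein (COMP) or associate with fibrillin microfibrils. Fibroblasts are a main source of these enzymes, and tumor stroma is rich in their substrate versican.

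MicroRNAs of the miR-200 family recognize mRNAs mostly through bases 2 to 8, the seed, and the mature sequences below (RefSeq, GRCm38.p6, all on the minus strand of chromosome 4) are shown because the overexpressed cluster carries 2 different seeds. Capitals mark the seed, which is shared by miR-200b and miR-429 and differs in miR-200a.
mmu-miR-200b-3p: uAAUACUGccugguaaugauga
mmu-miR-429-3p: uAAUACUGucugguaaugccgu
mmu-miR-200a-3p: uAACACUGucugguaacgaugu

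The 7 bases complementary to the seed, CAGTATT for miR-200b and miR-429 and CAGTGTT for miR-200a, were searched on the sense strand of the longest 3′-UTR that GENCODE M21 (GRCm38) annotates for each gene. Of the 10 ADAMTS genes, 4 held 5 matches between them, and these are printed with their surroundings as 30 bases of the transcript, with the match in capitals.
Adamts5, miR-200b and miR-429, chr16:85856875-85856881, minus strand: ctggtctttacatagCAGTATTgaaatgtg
Adamts6, miR-200b and miR-429, chr13:104496476-104496482, plus strand: ttattattttatactCAGTATTaatgtggt
Adamts9, miR-200b and miR-429, chr6:92772813-92772819, minus strand: ttaggaaaaccctgaCAGTATTccccaact
Adamts12, miR-200b and miR-429, chr15:11349167-11349173, plus strand: atccagtgagtacctCAGTATTaaaaccag
Adamts12, miR-200a, chr15:11348165-11348171, plus strand: tccgctgtgggctatCAGTGTTtccatggg

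The match of miR-200b and miR-429 lay near the end of each of these 3′-UTRs, at base 5729 of 6437 in *Adamts5*, 2772 of 2888 in *Adamts6*, 1763 of 1883 in *Adamts9* and 3490 of 3554 in *Adamts12*. In *Adamts6* and *Adamts12* it was followed by an A, the base that lies opposite the first base of the microRNA. The shorter 3′-UTR annotated for *Adamts6*, of 1059 bases, held no match. *Adamts1*, *Adamts2*, *Adamts4*, *Adamts7*, *Adamts10* and *Adamts14* had no match in any annotated 3′-UTR.

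The authors' values are in CPM, read counts scaled to about the same total in every sample, but they are not plain scaled counts. Each CAF-200 column held 6127 genes at 0, against 7898 in CAF-vec 1 and 7413 in CAF-vec 2. Some CAF-200 values lay far below 1 read, such as 3.05e-05 CPM for *Adamts13* in CAF-200 2. The CAF-200 columns may thus not be independent of each other, which was not tested. The column totals lay between 999956 and 1000111 CPM, which leaves the read totals unknown. At the lowest step of the values, where 1 read would lie, CAF-vec 1 most often held 0.0091 CPM and CAF-vec 2 held 0.0098 CPM, against 0.0102 to 0.0105 CPM for the CAF-200 samples. Differences between groups were computed on log2(CPM + 0.5) with limma over the 12175 genes that reached 0.5 CPM in 2 or more samples, and *p* values were adjusted over all of them by the Benjamini-Hochberg method. Genes with a log2 fold-change beyond 1 were called where the adjusted *p* was below 0.01. The added 0.5 CPM understates the changes of the lowest genes, among them *Adamts9*, *Adamts4* and *Adamts12*. The spread was wider within CAF-vec than within CAF-200, with an SD of the log2 difference over all genes of 0.49 between the CAF-vec samples against 0.19 to 0.20 for pairs of CAF-200 samples. Values without 1 CAF-vec sample are therefore given where they changed whether a named gene passed or moved its value by over 1.5 times. The lone CAF-vec sample is then assumed to vary like CAF-200, so more genes pass. The main fit also uses 1 variance per gene for both groups. Its standard errors and *p* values can therefore be too small for genes that varied more within CAF-vec, the smaller group. Of 12 fibroblast markers, 11 were at or above 0.5 CPM in every sample (the exception was *Fap*), and their summed CAF-vec levels were 13509 to 17338 CPM against CAF-200 levels of 11467 to 12403 CPM. This sum is carried by *Col1a1*, *Col1a2*, *Vim* and *S100a4*, and the other markers of the list went both ways. Means were higher in CAF-200 than in CAF-vec for *Acta2* (674 against 109 CPM), *Thy1* (268 against 98.04 CPM) and *Col3a1* (107 against 56.4 CPM). The same held for *Dcn* (56.4 against 7.93 CPM) and *Lum* (28.6 against 3.63 CPM). Means were lower in CAF-200 for *Pdgfra* (90.1 against 104 CPM) and *Pdgfrb* (182 against 216 CPM). All 7 epithelial markers were below 0.5 CPM in every sample, and so were 4 of 5 endothelial markers. Of the immune markers, *Cd68*, *Lyz2* and *Csf1r* were above that level, *Ptprc* reached at most 0.0404 CPM and *Adgre1* and *Cd3e* were listed at 0. In CAF-vec and CAF-200 in turn, the immune list summed to 8.34 to 9.31 and 12.2 to 12.8 CPM, the mesothelial list to 5.92 to 6.98 and 1.11 to 1.62 CPM, nearly all of it *Msln*, and the mural list to 7.90 to 11.5 and 6.78 to 7.58 CPM. The immune sum was higher in CAF-200 through *Lyz2* (means of 1.55 and 7.04 CPM in CAF-vec and CAF-200). *Cd68* (3.63 and 3.08 CPM) and *Csf1r* (3.64 and 2.35 CPM) had lower means there. The part of these lists in the results was not tested. *Zeb1*, a known target of miR-200, was at 43.5 and 50.7 CPM in CAF-vec and at 37.8, 37.5 and 34.1 CPM in CAF-200 (log2 fold-change -0.36, limma adjusted *p* = 0.0504), and *Zeb2* had a log2 fold-change of -0.23 with overlapping groups. The table has no row for the miR-200 hairpins, so the overexpression itself was not checked here.

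Among the ADAMTS genes, *Adamts1* fell most in CAF-200 and was the 1 gene called lower, while none was called higher, against 2.35% and 2.37% of all genes tested (4.72% in either direction). At an unadjusted *p* under 0.05 (limma), 5 of the 10 genes were lower and 2, *Adamts4* and *Adamts12*, were higher, and 27.6% and 17.3% of all genes were (44.9% in either direction). On the adjusted *p* alone, *Adamts1* and *Adamts10* were lower and *Adamts12* was higher (5.57% of all genes tested were lower and 4.45% higher on this rule, 10.0% in all). Of the 10 log2 fold-changes, 7 were below 0, against 58.3% of all genes. The median log2 fold-change of the 10 genes was -0.37, against -0.094 for all genes tested, whose middle 50% ran from -0.40 to 0.22. CAF-200 lay wholly below CAF-vec for 5 of the genes and wholly above for 2, or 7 of 10 apart, and 37.3% and 24.3% of all genes did so, 61.6% in all.

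**Figure D1:**
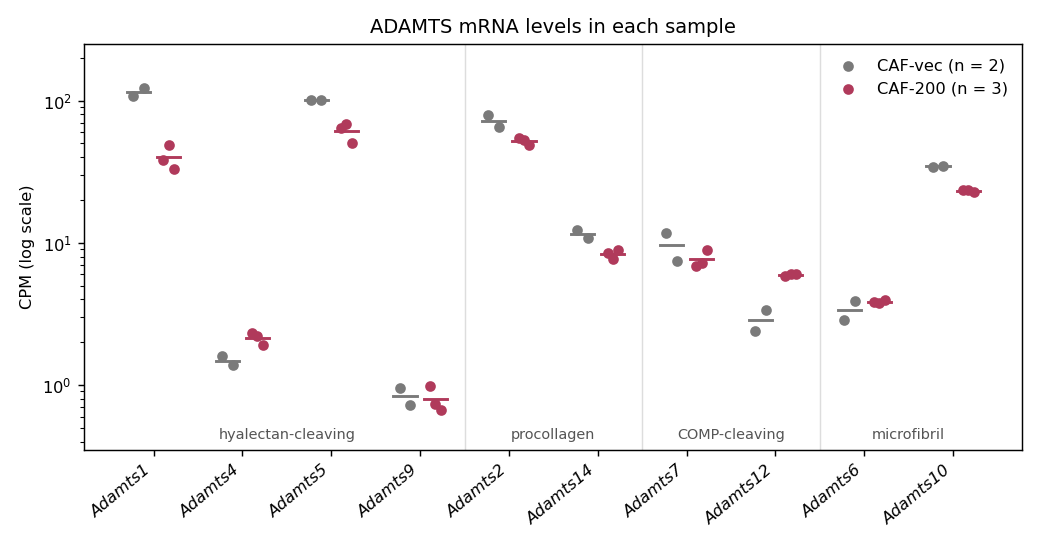
CPM on a log axis of each ADAMTS gene, grouped by role, with 1 point per sample (CAF-vec in grey, n = 2; CAF-200 in red, n = 3) and a line at each mean. *Adamts1*, *Adamts2* and *Adamts5* stood highest in both groups, and *Adamts1* was at 108 to 122 CPM in CAF-vec and at 33.2 to 48.9 CPM in CAF-200, whereas *Adamts12* lay at 2.40 to 3.37 and 5.83 to 6.05 CPM.

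**Figure D2:**
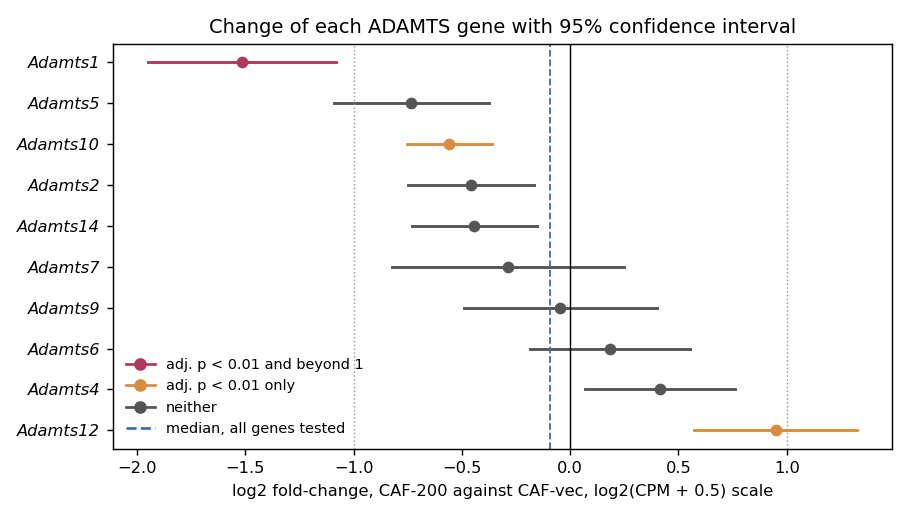
Log2 fold-change of CAF-200 against CAF-vec for each ADAMTS gene (points) with its 95% confidence interval (lines) on the log2(CPM + 0.5) scale, with dotted lines at -1 and 1 and a dashed line at the median of all genes tested, -0.094. The estimates ran from -1.52 for *Adamts1* to 0.95 for *Adamts12*, and the intervals of *Adamts6*, *Adamts7* and *Adamts9* included 0.

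The hyalectan-cleaving enzymes, which cut versican and aggrecan, were *Adamts1*, *Adamts4*, *Adamts5* and *Adamts9*, and of these only *Adamts1* passed the test. *Adamts1* (ENSMUSG00000022893, chr16:85793827-85803113, minus strand, GRCm38), a versican-cleaving enzyme that is also known to restrain blood vessel growth, was at 107.5 and 121.8 CPM in CAF-vec and at 38.5, 48.9 and 33.2 CPM in CAF-200. All CAF-200 samples lay below both CAF-vec samples, with the lowest CAF-vec value well over the highest of CAF-200. The CAF-vec mean was 114.7 ± 10.1 CPM (SD, n = 2) and the CAF-200 mean 40.2 ± 7.98 CPM (SD, n = 3), a 2.85-fold decrease, with a log2 fold-change of -1.52 (standard error 0.175, 95% confidence interval -1.95 to -1.08, limma adjusted *p* = 0.00466). Ordered by log2 fold-change, it was the 106th lowest of the 12175 genes. It stayed called without CAF-vec 1 (log2 fold-change -1.60) and without CAF-vec 2 (-1.43). Without any 1 of the CAF-200 samples its log2 fold-change was -1.66 to -1.39, but the adjusted *p* (limma) rose to between 0.0203 and 0.0307, where the whole table held 0 or 1 called genes and 3816 to 4058 genes at an unadjusted *p* under 0.05.

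*Adamts5* (ENSMUSG00000022894, chr16:85856173-85901828, minus strand), the main aggrecan-cleaving enzyme of mouse cartilage, which also cleaves versican, is the neighbor of *Adamts1* on chromosome 16, on the same strand and 53059 bases away, with no protein-coding gene between them. It was at 100.3 and 101.0 CPM in CAF-vec and at 64.2, 68.1 and 50.4 CPM in CAF-200. The groups were apart, with CAF-200 below, at means of 100.7 ± 0.487 CPM (SD, n = 2) and 60.9 ± 9.30 CPM (SD, n = 3). The log2 fold-change of -0.73 (standard error 0.145, 95% confidence interval -1.09 to -0.37) did not pass the threshold (limma adjusted *p* = 0.0166). Without CAF-vec 1 it was -0.74 (limma adjusted *p* = 0.00521) and without CAF-vec 2 -0.73 (limma adjusted *p* = 0.00352), so it passed the adjusted *p* when either was left out. Its 3′-UTR holds the miR-200b and miR-429 match printed above, and that of *Adamts1* holds none.

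*Adamts4* (ENSMUSG00000006403), an aggrecan-cleaving enzyme that is induced by inflammatory cytokines, was at 1.59 and 1.38 CPM in CAF-vec and at 2.32, 2.20 and 1.91 CPM in CAF-200. The CAF-200 samples lay above both CAF-vec samples, but the log2 fold-change of 0.41 (95% confidence interval 0.07 to 0.76) did not pass the threshold (limma adjusted *p* = 0.0732). *Adamts9* (ENSMUSG00000030022), a versican-cleaving enzyme with a long array of thrombospondin repeats, was the lowest of the 10 genes, at 0.947 and 0.718 CPM in CAF-vec and 0.980, 0.734 and 0.665 CPM in CAF-200. The groups overlapped and the log2 fold-change of -0.05 (95% confidence interval -0.49 to 0.40) had an adjusted *p* of 0.856 (limma), with a positive sign in 4 of 12 other settings.

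The procollagen N-propeptidases were lower in CAF-200 by similar amounts, and neither passed the threshold. *Adamts2* (ENSMUSG00000036545), the main enzyme that trims the amino-terminal propeptide of type I procollagen, was at 79.5 and 64.9 CPM in CAF-vec and at 54.5, 53.0 and 49.1 CPM in CAF-200. The CAF-200 samples lay below both CAF-vec samples, with a log2 fold-change of -0.46 (standard error 0.117, 95% confidence interval -0.75 to -0.17, limma adjusted *p* = 0.0343). Without CAF-vec 2 the log2 fold-change was -0.60, past the adjusted *p* threshold, and without CAF-vec 1 it was -0.31, not past it. *Adamts14* (ENSMUSG00000059901), a close relative with the same activity, was at 12.3 and 10.8 CPM in CAF-vec and at 8.54, 7.64 and 8.91 CPM in CAF-200. Here too the groups did not overlap, and the log2 fold-change was -0.44 (standard error 0.117, 95% confidence interval -0.73 to -0.15, limma adjusted *p* = 0.0371). It passed the adjusted *p* without CAF-vec 2 (-0.53) and not without CAF-vec 1 (-0.35).

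The COMP-cleaving enzymes *Adamts7* and *Adamts12*, share a domain order that includes a mucin-like region, and *Adamts12* passed the adjusted *p* while *Adamts7* did not. *Adamts12* (ENSMUSG00000047497, chr15:11064790-11349231, plus strand) was at 2.40 and 3.37 CPM in CAF-vec and at 5.83, 6.05 and 6.01 CPM in CAF-200. Every CAF-200 sample was above both CAF-vec samples, and the 3 CAF-200 values lay close together. The CAF-vec mean was 2.89 ± 0.690 CPM (SD, n = 2) and the CAF-200 mean 5.96 ± 0.116 CPM (SD, n = 3), a 2.07-fold increase in CPM, with a log2 fold-change of 0.95 (standard error 0.152, 95% confidence interval 0.57 to 1.32, limma adjusted *p* = 0.00956), below the *p* threshold but short of the fold threshold. The log2 fold-change was 0.74 without CAF-vec 1 and 1.16 without CAF-vec 2, and in the latter case *Adamts12* was called higher. It did not pass the adjusted *p* (limma) with a replicate block, with a pseudocount of 0.1 CPM (log2 fold-change 1.04, adjusted *p* = 0.0102), with no filter (adjusted *p* = 0.019) or without any 1 of the CAF-200 samples (0.0476 to 0.0562). *Adamts12* is the ADAMTS gene with a match to each of the 2 seeds, and whether miR-200 acts on it was not tested.

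*Adamts7* (ENSMUSG00000032363) was at 11.8 and 7.45 CPM in CAF-vec and at 6.82, 7.23 and 8.88 CPM in CAF-200. The groups overlapped, because CAF-vec 2 lay among the CAF-200 samples, and the log2 fold-change was -0.29 (95% confidence interval -0.82 to 0.25, limma adjusted *p* = 0.343). Its value rested on the CAF-vec sample used, at 0.0255 without CAF-vec 1 and -0.60 without CAF-vec 2 (limma adjusted *p* = 0.00872), and it overlaps *Tbc1d2b* on the opposite strand. Whether the authors' counting used strand is not given in the sources used here.

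Of the enzymes associated with fibrillin microfibrils, *Adamts10* (ENSMUSG00000024299, chr17:33524204-33553782, plus strand), which binds fibrillin-1 and is the gene of a Weill-Marchesani syndrome, had the smallest standard error of the 10 genes. It was at 34.3 and 34.7 CPM in CAF-vec and at 23.7, 23.3 and 22.9 CPM in CAF-200. The 2 groups were tight and apart, at 34.5 ± 0.251 CPM (SD, n = 2) and 23.3 ± 0.379 CPM (SD, n = 3). *Adamts10* fell by 0.56 on the log2 scale (standard error 0.0799, 95% confidence interval -0.76 to -0.36, limma adjusted *p* = 0.00765), short of the fold threshold. It passed the adjusted *p* in 7 of 13 other settings. It did not pass with a replicate block, and the adjusted *p* (limma) was 0.0129 with centring on the median of each sample, 0.0134 with quantile normalization and 0.0492 to 0.0553 without 1 CAF-200 sample. *Adamts6* (ENSMUSG00000046169), its closest relative, was at 2.85 and 3.88 CPM in CAF-vec and at 3.84, 3.75 and 3.95 CPM in CAF-200. The groups overlapped, and the log2 fold-change was 0.18 (95% confidence interval -0.19 to 0.55, limma adjusted *p* = 0.377), or -0.0117 without CAF-vec 1 and 0.38 without CAF-vec 2.

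Whether related enzymes changed to different degrees was examined with the log2 ratio of 5 pairs within each sample, by a two-sided exact permutation test whose smallest possible *p* in this design is 0.1. The ratio of *Adamts1* to its neighbor *Adamts5* was 0.10 and 0.27 in CAF-vec and -0.73, -0.47 and -0.59 in CAF-200, so *Adamts1* was the higher in CPM in both CAF-vec samples and the lower in every CAF-200 sample. The difference was -0.78 (exact permutation *p* = 0.1, 0.125 after Benjamini-Hochberg adjustment over the 5 pairs). The groups were also apart, with the same *p*, for *Adamts4* against *Adamts5* (difference 1.15), *Adamts7* against *Adamts12* (-1.24) and *Adamts6* against *Adamts10* (0.74). The difference of *Adamts7* against *Adamts12* was -0.71 without CAF-vec 1 and -1.76 without CAF-vec 2. For *Adamts2* against *Adamts14* the ratio was 2.64 and 2.53 in CAF-vec and 2.60, 2.72 and 2.40 in CAF-200, and the groups overlapped (difference -0.015, exact permutation *p* = 1.0).

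To compare levels between genes, CPM was divided by the kilobases of annotated exon. On this scale of CPM per kilobase, *Adamts1* was the most abundant in CAF-vec, at 21.6, followed by *Adamts5* at 9.33, *Adamts2* at 7.73, *Adamts10* at 4.18, *Adamts14* at 2.22 and *Adamts7* at 1.53. The rest were below 0.5, with *Adamts6* at 0.431, *Adamts4* at 0.308, *Adamts12* at 0.264 and *Adamts9* at 0.0553, and only *Adamts4* and *Adamts12* overlapped among neighbors in this order. In CAF-200 the order at the top was the same, but it was compressed, with *Adamts1* at 7.58, *Adamts5* at 5.64 and *Adamts2* at 5.59 CPM per kilobase and with overlapping ranges of *Adamts1* and *Adamts5* and of *Adamts5* and *Adamts2*. *Adamts12*, at 0.546, stood above *Adamts6* (0.494) and *Adamts4* (0.445), whose ranges overlapped, and *Adamts9* was again the lowest, at 0.0527. In 7 of the 10 positions of the order the gene was the same in both groups.

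The summed level of the 10 genes was 47.5 and 47.9 CPM per kilobase in CAF-vec and 26.2, 28.2 and 23.6 CPM per kilobase in CAF-200. The sum was thus lower in every CAF-200 sample, at 26.0 ± 2.31 (SD, n = 3) against 47.7 ± 0.290 (SD, n = 2). *Adamts1* made up 42.7% and 48.0% of the sum in CAF-vec and 27.7%, 32.7% and 26.6% in CAF-200. The share of the 4 hyalectan-cleaving enzymes was 65.7% ± 3.59 (SD, n = 2) in CAF-vec and 52.5% ± 4.33 (SD, n = 3) in CAF-200, while that of the procollagen enzymes was 20.9% ± 2.88 and 27.8% ± 2.19. The shares of the COMP-cleaving pair (3.77% ± 0.910 and 6.85% ± 1.28) and of the microfibril-associated pair (9.67% ± 0.202 and 12.8% ± 1.09) were also larger in CAF-200, although the levels of the procollagen pair (9.96 and 7.199 CPM per kilobase) and of the microfibril-associated pair (4.61 and 3.32) were lower there. These shares are parts of 1 sum, so a smaller share of *Adamts1* enlarges the others.

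**Figure D3:**
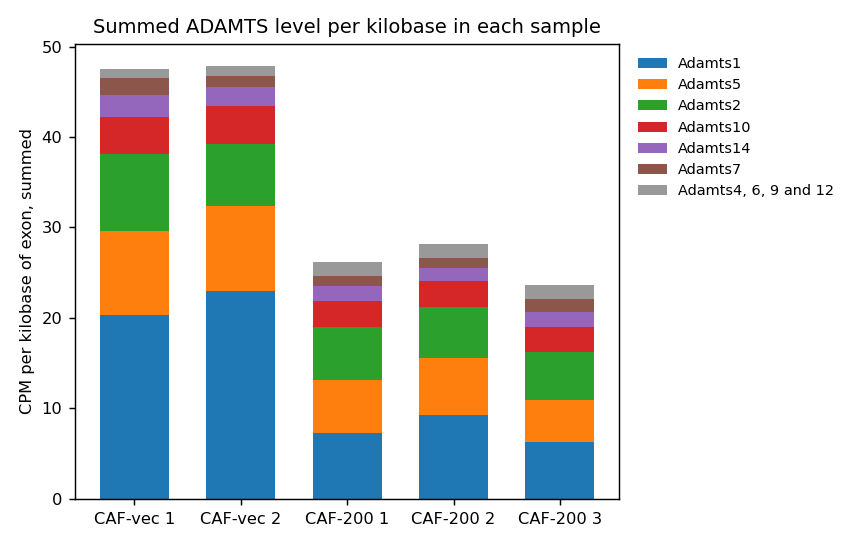
Summed level of the 10 ADAMTS genes in CPM per kilobase of exon in each sample, as stacked bars with 1 color per gene and the 4 lowest genes together in grey. The sum was 47.5 and 47.9 in the CAF-vec samples and 23.6 to 28.2 in the CAF-200 samples, and *Adamts1*, the lowest segment, gave the largest part of the difference.

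The seed matches were set beside the changes, with no test. In the genes with the CAGTATT match the log2 fold-changes were -0.73 (*Adamts5*), -0.05 (*Adamts9*), 0.18 (*Adamts6*) and 0.95 (*Adamts12*), and in the 6 genes without a match they ran from -1.52 (*Adamts1*) to 0.41 (*Adamts4*). *Adamts1* and *Adamts10*, the 2 ADAMTS genes that were lower at an adjusted *p* under 0.01, do not hold these 7 bases in their 3′-UTRs. This says nothing of other kinds of site, and direct action of miR-200 on the ADAMTS genes was not tested. Of the 12060 tested genes with an annotated 3′-UTR, 15.7% held CAGTATT and 20.9% CAGTGTT, and 30.3% held either. Genes with CAGTATT had longer 3′-UTRs (median 2491 bases against 991.5 bases without it), and their median log2 fold-change was -0.044, against -0.10 for genes without it.

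**Figure D4:**
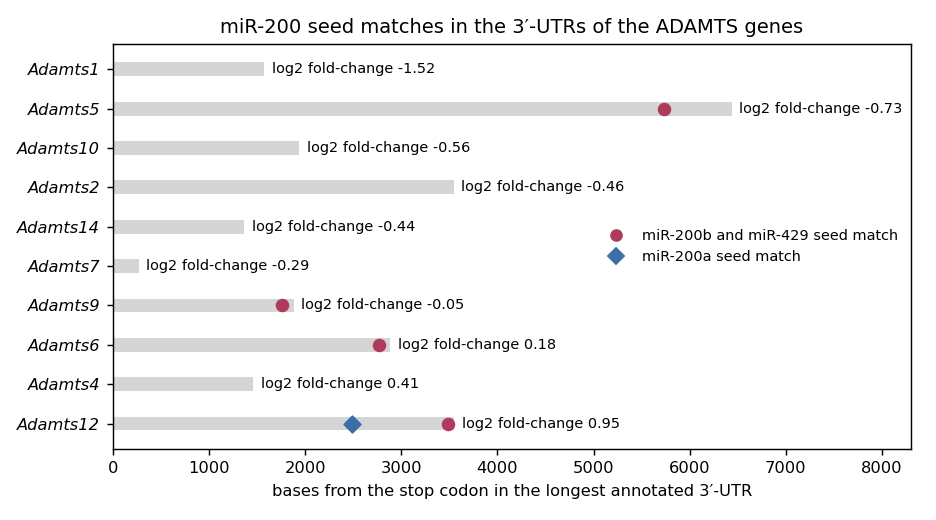
Longest annotated 3′-UTR of each ADAMTS gene (grey bars, bases from the stop codon), ordered from the most negative log2 fold-change at the top, with circles at matches to the miR-200b and miR-429 seed and a diamond at the match to miR-200a. Matches are in *Adamts5*, *Adamts6*, *Adamts9* and *Adamts12*, whose log2 fold-changes ran from -0.73 to 0.95.

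The other 9 ADAMTS genes of the table did not reach 0.5 CPM in 2 samples and were not tested. The highest by its CAF-vec mean was *Adamts15*, a versican-cleaving enzyme, at 0.516 and 0.388 CPM in CAF-vec and 0.101, 0.112 and 0.112 CPM in CAF-200. *Adamts3*, the third procollagen enzyme, was at 0.531 CPM in CAF-vec 1 and 0.0580 CPM in CAF-vec 2, and at most 0.0512 CPM in CAF-200. *Adamts17* had 0.131, 0.0318 and 0.112 CPM in CAF-200 and was listed at 0 in CAF-vec. *Adamts8*, *Adamts13*, *Adamts16* and *Adamts18* did not exceed 0.0514 CPM in any sample, and *Adamts19* and *Adamts20* were listed at 0 in all.

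The genes that ADAMTS enzymes act on or depend on were described from 10 lists of 57 genes, the 9 ADAMTS genes just given included. Of these, 29 were tested, with 2 called lower and 3 called higher, against 2.35% and 2.37% of all genes. The substrate versican, *Vcan*, was at 8.35 and 11.7 CPM in CAF-vec and at 34.4, 35.03 and 35.6 CPM in CAF-200. The groups were far apart, and *Vcan* rose 3.49-fold in CPM (log2 fold-change 1.77, standard error 0.15, limma adjusted *p* = 0.0028). This was opposite in direction to *Adamts1* and to *Adamts5*, which did not pass. Of the other hyalectan-cleaving enzymes, *Adamts4* (log2 fold-change 0.41, not passed) had the same direction as *Vcan*, and *Adamts9* (-0.05) overlapped between the groups. Aggrecan (*Acan*) did not exceed 0.112 CPM, and the only link protein tested, *Hapln4*, had a log2 fold-change of -0.79 (limma adjusted *p* = 0.0758).

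Of the inhibitors, *Timp3*, the tissue inhibitor that blocks ADAMTS4 and ADAMTS5, was at 510 and 583 CPM in CAF-vec and at 363, 388 and 354 CPM in CAF-200. The groups did not overlap, but the log2 fold-change of -0.57 did not pass the threshold (limma adjusted *p* = 0.0157). *Timp1*, which acts mainly on matrix metalloproteinases, was at 246 and 296 CPM in CAF-vec and at 2208, 2055 and 2587 CPM in CAF-200. It rose 8.43-fold in CPM (log2 fold-change 3.07, limma adjusted *p* = 9.6e-04). *Timp2* had a log2 fold-change of -0.38 (limma adjusted *p* = 0.0585). Of the endocytic receptors that clear ADAMTS enzymes, *Lrp1* overlapped between the groups, with a log2 fold-change of -0.25, and so did *Sdc4*, a syndecan that binds ADAMTS enzymes at the cell surface.

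The ADAMTS-like proteins have the thrombospondin repeats but no protease domain. Of 7 such genes, 3 were tested, and all 3 were lower on the adjusted *p*, a rule that 5.57% of all genes met. *Adamtsl5* was at 239 and 137 CPM in CAF-vec and at 35.6, 35.2 and 33.3 CPM in CAF-200. Although the CAF-vec samples differed from each other, both were well above all CAF-200 samples, and *Adamtsl5* fell by 2.37 on the log2 scale (limma adjusted *p* = 0.00331), with -1.97 without CAF-vec 1 and -2.77 without CAF-vec 2. *Adamtsl4*, which binds fibrillin-1, was at 17.8 and 12.6 CPM in CAF-vec and at 7.17, 7.44 and 6.33 CPM in CAF-200. It fell by 1.05 (limma adjusted *p* = 0.00984), close to both thresholds, and was called in 3 of 13 other settings. It was at -0.81 without CAF-vec 1, at -0.95 with centring on sample medians and at -0.97 with quantile normalization. *Adamtsl3* fell by 0.57 (limma adjusted *p* = 0.00765), short of the fold threshold, and did not pass with a replicate block or with centring, quantile normalization or no variance trend, with an adjusted *p* (limma) of 0.0113, 0.0115 and 0.01001 for the last 3.

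Among the collagen-processing genes, *Tll1*, which encodes a tolloid-like protease that removes the carboxyl-terminal propeptide of procollagens, was at 13.5 and 12.6 CPM in CAF-vec and at 28.8, 24.2 and 35.1 CPM in CAF-200. It rose by 1.13 on the log2 scale (limma adjusted *p* = 0.00795), above both CAF-vec samples throughout, and was not called with a replicate block or with no filter (limma adjusted *p* = 0.0147 in the latter). Its relative *Bmp1* and the enhancer *Pcolce* had log2 fold-changes of -0.36 (limma adjusted *p* = 0.0677) and -0.68 (limma adjusted *p* = 0.0226). The substrates of *Adamts2*, *Col1a1* and *Col1a2*, had log2 fold-changes of -0.91 and -0.75 that did not pass the threshold, and *Col1a1* was at 4613 CPM in CAF-vec 1 but 2003 CPM in CAF-vec 2. *Col3a1* had a log2 fold-change of 1.02 (limma adjusted *p* = 0.0542). None of the 6 fibrillar procollagen genes tested was called by limma, and 3 were at an unadjusted *p* under 0.05, as were 44.9% of all genes.

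In the microfibril list, *Fbn1*, the gene of fibrillin-1, was at 60.5 and 56.7 CPM in CAF-vec and at 104, 103 and 100.2 CPM in CAF-200. It rose by 0.80 on the log2 scale (limma adjusted *p* = 0.00352), short of the fold threshold and opposite in direction to *Adamts10*, and did not pass with a replicate block. *Mfap5* had a log2 fold-change of 0.97 (limma adjusted *p* = 0.0151). *Comp* did not exceed 0.221 CPM, and of the thrombospondins *Thbs1* had a log2 fold-change of -0.09 (limma adjusted *p* = 0.658) and *Thbs2* of -0.34 (limma adjusted *p* = 0.0421). *Furin*, a convertase that removes the propeptide of many ADAMTS enzymes, had a log2 fold-change of -0.37 (limma adjusted *p* = 0.0287), and *Pcsk7* of -0.28. *Pofut2*, which adds O-fucose to thrombospondin repeats and is needed for secretion of many ADAMTS enzymes, was at 236 and 169 CPM in CAF-vec and at 110, 106 and 106 CPM in CAF-200. The groups were apart, but the log2 fold-change of -0.90 did not pass the threshold (limma adjusted *p* = 0.011). In 7 other settings with every sample and no replicate block, the adjusted *p* of *Pofut2* (limma) ran from 0.00609 to 0.0185. *B3glct*, which extends that fucose, had a log2 fold-change of -0.26.

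Several of these genes depended on which CAF-vec sample was used. Without any 1 CAF-200 sample, no gene of the lists or of the ADAMTS family passed the adjusted *p* (limma). *Timp3*, *Timp2*, *Pcolce*, *Thbs2*, *Mfap5*, *Pofut2* and *Col3a1* passed the adjusted *p* (limma) when either CAF-vec sample was left out, and *Pofut2* was at -0.66 without CAF-vec 1 and at -1.14, called lower, without CAF-vec 2. *Col3a1* was at 1.56, called higher, without CAF-vec 1 and at 0.47 without CAF-vec 2. *Mfap5* was at 0.67 without CAF-vec 1 and at 1.27, called higher, without CAF-vec 2. *Sdc4* also passed both times, but with opposite signs, at 0.37 without CAF-vec 1 and -0.39 without CAF-vec 2. *Col1a1* was at -0.31 without CAF-vec 1 and at -1.51 without CAF-vec 2, and *Col1a2* at -0.24 and -1.26, so both were called lower in the second case. *Hapln4*, at -0.36 and -1.22, was called in the second case too. *Bmp1* (-0.21 and -0.51), *Lrp1* (-0.026 and -0.48), *Furin* (-0.30 and -0.44) and *Pcsk7* (-0.095 and -0.47) passed the adjusted *p* without CAF-vec 2 and not without CAF-vec 1. *Thbs1* passed in neither case, at -0.025 and -0.16, and of the miR-200 targets *Zeb1* passed without CAF-vec 1 (-0.47) and *Zeb2* without CAF-vec 2 (-0.54).

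**Figure D5:**
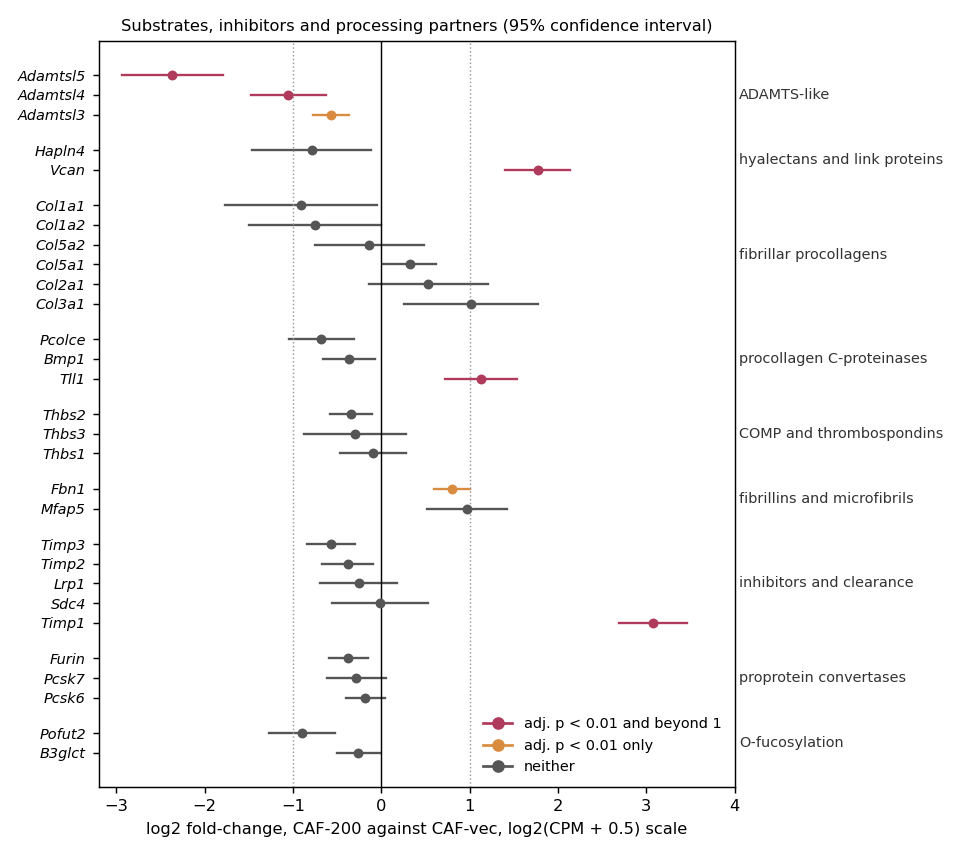
Log2 fold-change of CAF-200 against CAF-vec (points) with its 95% confidence interval (lines) on the log2(CPM + 0.5) scale for the 29 tested substrates, inhibitors, ADAMTS-like and processing genes, grouped by list, with dotted lines at -1 and 1. *Adamtsl5* (-2.37) and *Adamtsl4* (-1.05) were called lower and *Tll1* (1.13), *Vcan* (1.77) and *Timp1* (3.07) higher.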

How the data were processed

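RNA of 2 CAF-vec and 3 CAF-200 samples was sequenced from stranded mRNA libraries. The methods describe triplicate RNA of both, and 2 CAF-vec samples were analysed here. The authors deposited 1 table of normalized CPM, named for TMM (a scaling by trimmed means), and the submitters' processing notes name FastQC, cutadapt, Trimmomatic, STAR, RSEM and edgeR and the build GRCm38. The annotation used for counting is not given in the sources used here. The CPM values were not whole multiples of 1 read (24.1% to 56.6% of values between 0.005 and 0.2 CPM lay within 0.05 of a multiple of the commonest lowest step), so no count test was run. All sample columns were used.

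The log2(CPM + 0.5) values were compared by a linear model with a variance trend (limma 3.58.1, R 4.3.3). The model was tried on simulated data with the same spread in both groups, so that trial does not cover the wider CAF-vec spread. The study's thresholds, an adjusted *p* of 0.01 and a log2 fold-change of 1, were kept. GENCODE M21 (GRCm38) named 21795 of the 21835 genes and gave coordinates, exon lengths and 3′-UTRs. Tables were handled in Python 3.11.15 with pandas 2.3.3, numpy 2.4.6 and SciPy 1.17.1, and drawn with matplotlib 3.10.9.

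The ADAMTS genes, the gene and marker lists and the tests were chosen with earlier results of these data known. Named were all ADAMTS genes of the table, the called genes of each list and the 2 of each list with the highest mean level. *Acan*, *Timp3*, *Lrp1*, *Sdc4*, *Col3a1* and *Comp* were named for their roles, and *Col5a2* and *Thbs3* for a change of sign, after their values were seen. Alternatives were pseudocounts of 1 and 0.1, a filter at 1 CPM in all samples or none, centring on sample medians, quantile normalization, no variance trend, a replicate block, each sample left out and other thresholds. Those for the genes of the other lists and for the pair ratios were added after seeing the data. With 1 CAF-vec sample left, limma pools the spread over genes and the lone sample is assumed to vary like CAF-200.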

Additional observations from a re-analysis of the deposited data

How the results depend on the processing

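*Adamts1* was called lower in 10 of 13 other settings at the main thresholds, with log2 fold-changes of -1.66 to -1.39. The count of ADAMTS genes called lower was 1, with a range of 0 to 1 when 1 sample was left out and 2 at a log2 fold-change beyond 0.5. The count called higher was 0, with a range of 0 to 1 when 1 sample was left out, and 1 (*Adamts12*) with quantile normalization, with centring and beyond 0.5. Of all genes, an adjusted *p* under 0.05 gave 436 lower and 368 higher, and a log2 fold-change beyond 0.5 gave 677 lower and 541 higher. At the main thresholds 286 were lower and 289 higher. Without CAF-vec 2 the counts were 906 and 624, and without any 1 CAF-200 sample 0 or 1. Centring gave 228 lower and 365 higher, as it moved the median of all genes from -0.094 to 0.0027. Of the other listed genes, 2 were lower, with a range of 0 to 6 when 1 sample was left out, and 1 with a pseudocount of 1, no filter, quantile normalization, centring, no variance trend or the replicate block, and 3 were higher, with a range of 0 to 4. The median log2 fold-change of the ADAMTS genes was -0.44 at 1 CPM or more in every sample (*Adamts9* not tested), -0.28 with quantile normalization, -0.27 with centring and -0.54 to -0.16 when 1 sample was left out.

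Signs changed for *Adamts9* (0.051 with centring, 0.026 with the replicate block, -0.17 to 0.0787 without 1 sample) and *Sdc4* (0.0878 with quantile normalization, 0.0834 with centring, -0.3915 to 0.3651 without 1 sample, with 0.0105 without CAF-200 2). *Thbs1* was at 0.0029 with centring. Without CAF-vec 1 and without CAF-vec 2 in turn, the log2 fold-change was -0.0117 and 0.3779 for *Adamts6*, 0.0255 and -0.6002 for *Adamts7*, 0.2902 and -0.5623 for *Col5a2*, 0.0623 and -0.6471 for *Thbs3* and 0.0828 and -0.5416 for *Zeb2*. The ratio of *Adamts2* to *Adamts14* differed between groups by 0.0417 without CAF-vec 1 and by -0.0873 to 0.0721 over all samples left out, the highest without CAF-200 3. The causes were not tested.

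In the fit with a replicate block, 70 genes were lower and 101 higher, and *Adamts1* stayed called (log2 fold-change -1.39), while the adjusted *p* (limma) was 0.035 for *Adamts12*, 0.0712 for *Adamts10*, 0.0606 for *Adamtsl3*, 0.0326 for *Adamtsl4*, 0.0205 for *Tll1* and 0.0297 for *Fbn1*. CAF-200 3, which has no same-numbered partner, adds nothing to that fold-change. The deviations of same-numbered samples from their group means had correlations of 0.25 and 0.13 over genes. CAF-vec 2 correlated about as well with CAF-200 3 (0.12). The deviations of the 2 CAF-vec samples mirror each other, so these correlations are tied and do not show separate pairs moving together. With 2 pairs the samples share only a number. Total counts are unknown and CAF-vec has 2 samples, which limits the precision of each fold-change.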
